A study of Homo sapiens with 4 samples.

Results

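DMSO is the solvent in which vemurafenib, an inhibitor of the BRAF kinase, is given to cells, and the solvent culture is the usual reference for the drug. The 2 drug-free libraries of A375 cells, a human melanoma line that carries an activating BRAF mutation, were compared to see which classes of genes differed before any drug was added. A375P was the untreated parental line, and A375+DMSO was the same line, also labelled wild type, kept for 48 h with 1‰ DMSO. Genes were taken where the TPM was at least 1 in either library, which gave 1720 of the 2864 genes in the table. The table held only an alphabetical part of the genes, up to CAC. The gene lists below hold only members from that part, and shares of all genes are shares of the genes compared in it. TPM gives a gene's reads per length as a share of such values over the whole library, so levels can be compared between genes. The other libraries were A375R, the line made resistant by continuous vemurafenib, and A375+VEM, A375 cells with 2 μM vemurafenib for 48 h, and they are shown only as values beside the named genes. Each condition was 1 culture and 1 library, so no difference between the libraries has a replicate check and none was tested. The labels used here name no batch, and no cell density or time in culture for A375P. The solvent and other differences between the cultures thus cannot be told apart. The study sequenced the cultures as 2 pairs, the solvent with the drug and A375R with A375P, and this comparison crosses them, so pair and condition cannot be told apart either.

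Cell lines in log growth hold a balance of division genes, stress genes and metabolic genes that follows density, nutrients and serum. The p53 protein switches on genes of arrest and death, ERK signalling switches on short-lived immediate-early genes, and interferon signalling switches on antiviral genes. The vacuolar ATPase is the proton pump that acidifies lysosomes, and hypoxia-inducible factors act on genes of glycolysis and pH control when oxygen is short. These programmes are read out below through the genes of each that the table holds.

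The cultures differed in many genes. Of the 1720 genes, 461 (26.8%) were past 1.5-fold higher in A375+DMSO and 325 (18.9%) were past 1.5-fold lower, on the ratio of (TPM + 0.1). At 2-fold these counts were 286 (16.6%) higher and 161 (9.36%) lower. The whole 95% interval lay past 1.5-fold for 309 genes (18.0%) that were higher and 214 (12.4%) that were lower. The intervals come from the reads by the exact Clopper-Pearson method and cover counting error only. The median log2 ratio was 0.09 and the middle 90% of genes ran from -1.36 to 2.00. Of the genes compared, 1551 reached a TPM of 1 in both libraries, 119 only in A375+DMSO and 50 only in A375P. A gene that passed through 1 library had to be higher there, and 108 of the 119 were past 1.5-fold higher and 46 of the 50 past 1.5-fold lower. Among the 1551 genes at a TPM of 1 in both, 353 (22.8%) were higher and 279 (18.0%) lower, with a median of 0.04. Just past the threshold stood AMPD2 at a log2 ratio of 0.59 and BIRC6 at -0.59, and just short of it AGAP2-AS1 at 0.58 and C15orf40 at -0.58. Log2 ratios are on the (TPM + 0.1) scale throughout, which understates the difference of low genes, and folds of single genes are ratios of TPM.

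**Figure D1:**
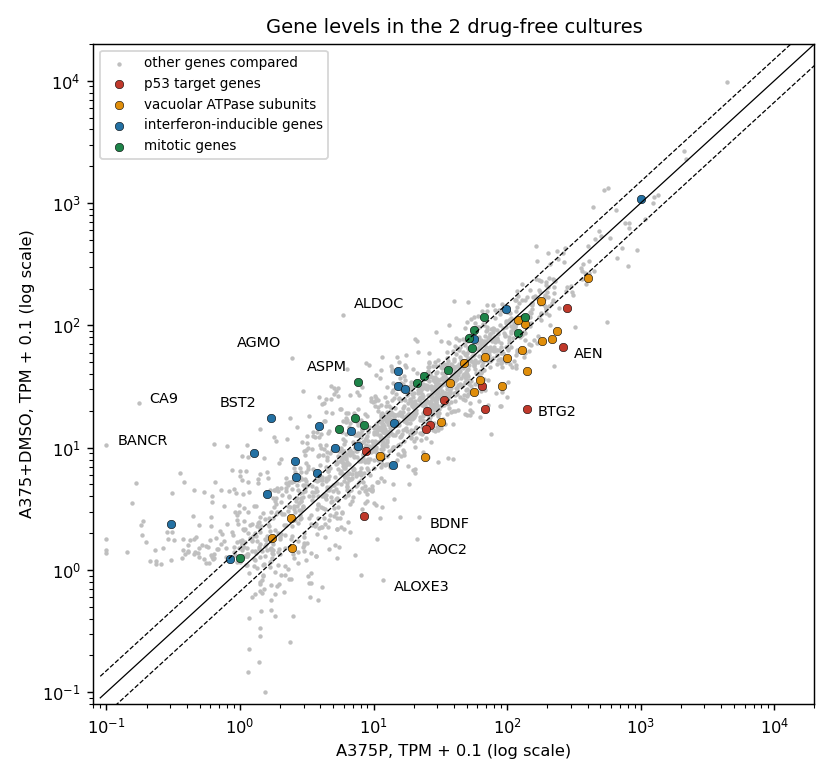
Level of each of the 1720 genes as TPM + 0.1 in A375P (x axis, log scale) and in A375+DMSO (y axis, log scale), 1 point per gene, with the line of equal levels and dashed lines at 1.5-fold. The p53 target genes and vacuolar ATPase subunits in color lie on or below the line of equal levels apart from APAF1 and 3 subunits, and most interferon-inducible and mitotic genes lie above it.

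Over the upper quintiles of level, the share of genes that were higher in A375+DMSO fell as the level rose. In the lowest quintile of mean TPM (0.550 to 3.56), 43.9% of genes were past 1.5-fold higher and 22.1% lower, with a median log2 ratio of 0.44. These shares were set in part by the filter, since 112 of its 344 genes entered only through A375+DMSO, 101 of them past the threshold, and 48 only through A375P, 44 of them past it. Of its 184 genes at a TPM of 1 in both libraries, 27.2% were higher and 17.4% lower, with a median of 0.16. The share that was higher in the next 3 quintiles, where 9 genes in all entered through 1 library, was 32.6%, 25.9% and 18.6%. In the highest quintile (53.9 to 7092) 13.1% were higher and 22.1% lower, with a median of -0.14. The share that was lower had no such order, at 14.5% to 22.1% over the 5 quintiles. Quintiles of gene length had medians between -0.01 and 0.17 with no such order. By type, 423 of 1579 protein-coding genes were higher and 292 lower, 20 of 62 lncRNAs higher and 10 lower, and 11 of 41 pseudogenes higher and 13 lower. The share of each list below stands beside the 26.8% higher and 18.9% lower of all genes. For part of the lists the share in the quintile of their median level is given too. The lists were written with earlier results of these data known, so their shares describe the genes chosen and are no test of a class.

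**Figure D2:**
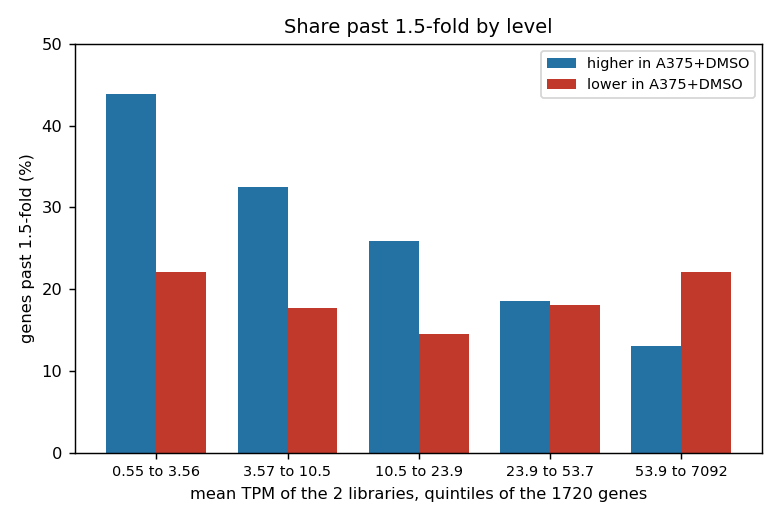
Percent of genes past 1.5-fold higher (blue bars) or lower (red bars) in A375+DMSO than in A375P, in quintiles of the mean TPM of both libraries (x axis, 344 genes in each quintile). The share that was higher went from 43.9% in the lowest quintile, where 112 genes passed the filter only through A375+DMSO, to 13.1% in the highest.

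Of 12 p53 target genes, 8 (66.7%) were past 1.5-fold lower in A375+DMSO and 0 were higher, with a median log2 ratio of -0.91. The median member had a mean TPM of 36.9, in a quintile where 18.0% of all genes were lower. BTG2, an antiproliferative gene induced by p53 and by growth factors, had a TPM of 139.8 in A375P, 20.6 in A375+DMSO, 28.2 in A375R and 29.6 in A375+VEM. It was 6.80-fold lower (95% interval 6.15 to 7.52) in A375+DMSO than in A375P. In bulk RNA, fewer cells that express a gene and less RNA per cell cannot be told apart. AEN, an apoptosis-enhancing nuclease, had a TPM of 262 in A375P, 66.5 in A375+DMSO, 138 in A375R and 31.3 in A375+VEM. In both genes A375P was the highest of the 4 libraries and A375+DMSO lay under A375R. The pore-forming death protein BAX had a TPM of 282 in A375P, 139 in A375+DMSO, 152 in A375R and 209.7 in A375+VEM. BBC3, also known as PUMA, had a TPM of 65.0 in A375P, 31.8 in A375+DMSO, 34.9 in A375R and 29.1 in A375+VEM. Both stood about equally in A375+DMSO and A375R and highest in A375P. The others past the threshold were BLOC1S2, a lysosome-positioning subunit, at a log2 ratio of -1.72, the ceramidase ACER2 at -1.61, the helicase subunit ASCC3 at -0.81 and the lipase ABHD4 at -0.80. ANKRA2, AIFM2, BTG1 and APAF1 stayed within it, from -0.48 to 0.10. Summed over the list the TPM was 1077 in A375P, 478 in A375+DMSO, 656 in A375R and 519.8 in A375+VEM, lowest in A375+DMSO.

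Among 22 genes of the BCL2 family and of cell death, 10 (45.5%) were lower and 3 (13.6%) higher, with a median of -0.41. Of these, BAX and BBC3, both lower, and APAF1 also stand in the p53 list. At their median level 18.0% of all genes were lower. The lower ones act on both sides of death. The effectors BAX and BAK1 were lower, BAK1 at a TPM of 63.3 in A375P, 28.7 in A375+DMSO, 33.0 in A375R and 24.6 in A375+VEM. So were the protective genes BCL2, at -1.29 on the log2 scale, BCL2A1 at -0.84, BCL2L2 at -0.60 and the ubiquitin ligases BIRC2 at -1.01 and BIRC3 at -1.36. BIRC3 had a TPM of 23.4 in A375P, 9.08 in A375+DMSO, 64.4 in A375R and 6.997 in A375+VEM, so A375R was far above both drug-free libraries. The 3 higher genes were BMF and BAD, which are death-promoting BH3-only proteins, and BCL2L12, at log2 ratios of 1.06, 0.73 and 0.70. BMF had a TPM of 1.76 in A375P, 3.77 in A375+DMSO, 3.49 in A375R and 128 in A375+VEM, and the difference between the drug-free libraries was small beside its level in A375+VEM. Of 17 MITF-linked pigment cell genes 7 (41.2%) were lower and 2 (11.8%) higher, in a quintile where 14.5% of all genes were lower. The lower ones included the lysosomal ceramidase ASAH1 at -0.997 and the copper pump ATP7A at -1.01. They also included BCL2 and BCL2A1, which were counted among the death genes too.

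Of 10 immediate-early and ERK-responsive genes, 4 (40.0%) were lower and 0 higher, with a median of -0.39, in a quintile where 14.5% of all genes were lower. BTG2, which was lower, and BTG1 also stand in the p53 list. ARC, an activity-regulated cytoskeletal protein, had a TPM of 15.8 in A375P, 2.59 in A375+DMSO, 6.09 in A375R and 0.812 in A375+VEM. BHLHE40, a repressor in the clock and in hypoxia, had a TPM of 89.8 in A375P, 21.9 in A375+DMSO, 51.9 in A375R and 22.9 in A375+VEM. A375P was the highest library for both, and for ARC A375+VEM was the lowest. AREG, an EGFR ligand, and ATF3, a stress factor, were not past the threshold, at 0.17 and -0.57. Of 8 clock and xenobiotic bHLH-PAS factors 4 (50%) were lower and 0 higher, where 18.0% of all genes of their median level were lower. They were BHLHE40, its paralog BHLHE41 at -1.91, ARNT2 at -1.56 and ARNTL, the core clock activator BMAL1, at -0.95, while the dioxin receptor AHR was at 0.34. Of 14 NF-kB target genes 6 (42.9%) were lower and 0 higher, against the same 18.0% at their level. Of these 6, ADORA2A reached a TPM of 1 in A375P only, so the filter set its direction. Among the 13 at a TPM of 1 in both libraries 5 (38.5%) were lower and 0 higher. BTG2, BIRC3, BIRC2 and BCL2A1 among the lower genes also stand in the lists above.

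Of 14 secreted growth and vascular factors, 5 (35.7%) were lower and 3 (21.4%) higher. Of the 11 at a TPM of 1 in both libraries 4 were lower and 2 higher. BDNF, a neurotrophin, had a TPM of 21.8 in A375P, 2.59 in A375+DMSO, 4.51 in A375R and 2.12 in A375+VEM. With 1446 reads in A375P, 160 in A375+DMSO, 270 in A375R and 130 in A375+VEM it was 8.43-fold lower (95% interval 7.16 to 9.99) in A375+DMSO. Its gene shares 43279 bases with BDNF-AS on the other strand, and strand was not stated for the counting. ADM, the vasodilator adrenomedullin, had a TPM of 88.7 in A375P, 21.7 in A375+DMSO, 18.2 in A375R and 5.07 in A375+VEM. ARTN, a ligand of the GDNF family, had 7.20 in A375P, 1.22 in A375+DMSO, 1.93 in A375R and 5.57 in A375+VEM, lowest in A375+DMSO. The EGFR ligand BTC and the peptide APLN were the other lower genes, on few reads, at -1.36 and -0.89, and BTC reached a TPM of 1 in A375P only. The 3 higher genes were angiopoietin-like, ANGPTL6 at 1.35, ANGPTL4 at 0.84 and ANGPTL8 at 0.62. ANGPTL8 reached a TPM of 1 in A375+DMSO only, and ANGPTL6 shares 916 bases with C19orf66 on the other strand. On 6 reads in A375P and 9 in A375+DMSO, the interval of ANGPTL8, 0.511 to 5.49, includes equal levels. AXL, a receptor tyrosine kinase and YAP/TAZ target, was at -0.88. Of the 8 YAP/TAZ target and angiomotin genes 2 (25.0%) were lower and 1 (12.5%), AMOT at 1.97, was higher, a share of lower genes near that of all genes.

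Of 22 vacuolar ATPase subunits, 13 (59.1%) were past 1.5-fold lower in A375+DMSO and 0 were higher, with a median log2 ratio of -0.77. The median member had a mean TPM of 61.4, which falls in the highest quintile of levels, where 22.1% of genes were lower. The lower subunits came from both sectors of the pump. In the cytosolic V1 sector, which hydrolyses ATP, ATP6V1B2 had a TPM of 140.1 in A375P, 42.4 in A375+DMSO, 41.7 in A375R and 52.7 in A375+VEM. ATP6V1D had 91.1 in A375P, 31.6 in A375+DMSO, 40.6 in A375R and 57.2 in A375+VEM. ATP6V1E1 had 235 in A375P, 89.7 in A375+DMSO, 97.7 in A375R and 141 in A375+VEM. For all 3 A375P was the highest library and A375+VEM the second. In the membrane V0 sector, which carries the protons, ATP6V0E1 had a TPM of 216 in A375P, 77.0 in A375+DMSO, 84.5 in A375R and 208 in A375+VEM. ATP6V0B had 183 in A375P, 74.1 in A375+DMSO, 77.5 in A375R and 123 in A375+VEM. In ATP6V0E1 the drug-treated A375+VEM stood close to A375P, and A375+DMSO close to A375R. ATP6V0A2, ATP6V0D1 and ATP6V0C were at -1.52, -1.02 and -0.72. The catalytic subunit ATP6V1A was not past the threshold at -0.31, nor were ATP6V1F at -0.17 and the accessory proteins ATP6AP1 at -0.40 and ATP6AP2 at -0.11. Summed over the subunits the TPM was 2275 in A375P, 1288 in A375+DMSO, 1237 in A375R and 2045 in A375+VEM. The subunits of the mitochondrial ATP synthase did not share this, with 1 of 16 lower, ATP5G1 at -1.05, and a median of -0.13. Of 19 autophagy genes 4 (21.1%) were lower, near the share of all genes, and 2 (10.5%) higher.

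Lysosomal genes are known to be controlled through E-boxes near their starts, so the promoters of 2 lower V0 subunits that hold one are shown. The stretches are the 120 bases before the transcription start as listed by RefSeq on GRCh38.p14, read 5′ to 3′ on the gene's strand. Capitals mark CACGTG, which reads the same on both strands.
ATP6V0B, chr1:43974840-43974959, plus strand: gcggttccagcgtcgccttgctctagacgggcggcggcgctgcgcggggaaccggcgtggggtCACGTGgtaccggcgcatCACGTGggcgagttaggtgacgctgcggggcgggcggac
ATP6V0D1, chr16:67481158-67481277, minus strand: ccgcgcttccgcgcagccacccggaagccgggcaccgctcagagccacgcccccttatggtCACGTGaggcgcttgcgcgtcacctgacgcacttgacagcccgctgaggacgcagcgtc
The motif starts 57 and 39 bases before the start of ATP6V0B and 59 bases before that of ATP6V0D1. In windows from 250 bases before to 50 after the start, 8.77% of the 27305 genes in the promoter table hold it at 1 or more listed starts. RefSeq promoters were matched for 16 of the 22 subunits and for 1292 (75.1%) of the 1720 genes, under the 80% needed, so a comparison of shares over either is void. Of the 16 matched subunits 4 hold the motif, so most do not. The letters are a description and say nothing of binding in these cells.

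Of 14 genes of the mitotic spindle, checkpoint and cytokinesis, 9 (64.3%) were past 1.5-fold higher and 0 lower, with a median log2 ratio of 0.68. For 5 of them the whole interval was past 1.5-fold. Their median level, a mean TPM of 35.3, lies in a quintile where 18.6% of all genes were higher. ASPM, a spindle pole protein, had a TPM of 7.54 in A375P, 34.4 in A375+DMSO, 32.2 in A375R and 0.509 in A375+VEM. It was 4.55-fold higher (95% interval 4.19 to 4.95) in A375+DMSO than in A375P, level with A375R and lowest in A375+VEM. AURKB, the kinase of the chromosomal passenger complex, had a TPM of 66.9 in A375P, 117 in A375+DMSO, 109 in A375R and 3.07 in A375+VEM. AURKA, the spindle pole kinase, had 56.7 in A375P, 91.3 in A375+DMSO, 80.5 in A375R and 6.52 in A375+VEM. Both were highest in A375+DMSO, by less than 2-fold over A375P, and lowest in A375+VEM. The AURKA partners AUNIP and BORA were at 1.36 and 0.86 and the checkpoint kinase BUB1 at 0.69. BIRC5, or survivin, was at 0.26, BUB1B at 0.26, BUB3 at -0.23 and BOD1 at -0.50, none of them past the threshold. Summed over the list the TPM was 598 in A375P, 751 in A375+DMSO, 748 in A375R and 155 in A375+VEM. Subunits of the anaphase-promoting complex, the ligase that ends mitosis, were not among the higher genes. Of 10 subunits, 3 were lower, ANAPC13 at -1.02, ANAPC7 at -0.78 and ANAPC16 at -0.73, and 0 higher, where 18.0% of all genes of their level were lower.

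Of 21 DNA replication and repair genes 6 (28.6%) were higher and 5 (23.8%) lower, close to the shares of all genes. The higher ones were the helicase BRIP1, the clamp unloader ATAD5 and the histone chaperone ASF1B, at 0.97, 0.96 and 0.92, with ATRX, BARD1 and APEX1 between 0.69 and 0.84. The lower ones were ASF1A at -0.81, ALKBH2, ALKBH3, BRE and ATR. BRCA1 and ATM were at 0.22 and -0.09. The paralogs ASF1A and ASF1B thus lay on opposite sides, ASF1B at a TPM of 41.3 in A375P and 78.4 in A375+DMSO and ASF1A at 36.6 in A375P and 20.9 in A375+DMSO.

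Division genes often carry the cell cycle homology region TTTGAA in their promoters. The stretches of 2 of the higher genes that hold it are shown with it in capitals, where TTCAAA is the same motif on the other strand.
ANLN, chr7:36389742-36389861, plus strand: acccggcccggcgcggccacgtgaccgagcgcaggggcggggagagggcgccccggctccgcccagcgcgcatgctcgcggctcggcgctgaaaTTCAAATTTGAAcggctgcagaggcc
ASPM, chr1:197146670-197146789, minus strand: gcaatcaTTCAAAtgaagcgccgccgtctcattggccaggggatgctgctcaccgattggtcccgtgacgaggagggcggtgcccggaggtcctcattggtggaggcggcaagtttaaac
ANLN, which builds the cleavage furrow, holds it on both strands next to each other, at 26 and 20 bases before the start, and was just past the threshold at 0.59. ASPM holds it 113 bases before the start. In the same window 18.2% of all 27305 genes with a promoter hold it. RefSeq promoters were matched for 10 of the 14 mitotic genes, under the 80% needed, so a comparison of shares is void. Of these 10, 4 hold it, so most do not. The letters are a description and say nothing of binding in these cells.

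Of 20 interferon-inducible genes, 13 (65.0%) were past 1.5-fold higher in A375+DMSO and 1 lower, with a median log2 ratio of 0.98. The median member had a mean TPM of 9.44, and in that quintile of levels 32.6% of all genes were higher. BST2, or tetherin, which holds budding viruses at the cell surface, had a TPM of 1.603 in A375P, 17.4 in A375+DMSO, 4.56 in A375R and 16.2 in A375+VEM. On 14 reads in A375P, 142 in A375+DMSO, 36 in A375R and 131 in A375+VEM, it was 10.9-fold higher (95% interval 6.27 to 20.4) in A375+DMSO. BTN3A3, a butyrophilin of the cell surface, had a TPM of 1.17 in A375P, 8.87 in A375+DMSO, 7.62 in A375R and 13.1 in A375+VEM. Its paralogs BTN3A2 and BTN3A1 were at 1.95 and 1.58. A375P was the lowest of the 4 libraries for each of them. The cytidine deaminase APOBEC3G had a TPM of 15.3 in A375P, 41.9 in A375+DMSO, 138 in A375R and 18.6 in A375+VEM. APOBEC3B had 15.2 in A375P, 31.9 in A375+DMSO, 54.9 in A375R and 2.54 in A375+VEM. Both were highest in A375R, and APOBEC3B was lowest in A375+VEM. APOBEC3D and APOBEC3F were at 1.02 and 0.95, the lytic factor APOL1 at 1.39 and the DNA sensor AIM2 at 1.14. Of the 18 members at a TPM of 1 in both libraries 12 were higher and 1 lower. APOBEC3H, which reached it in A375+DMSO only, was also higher, on 2 reads in A375P and 21 in A375+DMSO, and the butyrophilin and APOBEC3 copies are alike enough in sequence that reads could be shared among them. BISPR, an lncRNA beside BST2, had 28 reads in A375P, 73 in A375+DMSO, 40 in A375R and 91 in A375+VEM. The editing enzyme ADAR was at 0.48, APOL2 at 0.16 and the MHC class I light chain B2M at 0.09, all within the threshold. The exception in direction was BATF2, at -0.95. The high summed TPM of 1275 in A375P, 1518 in A375+DMSO, 1804 in A375R and 2152 in A375+VEM is mostly B2M.

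**Figure D3:**
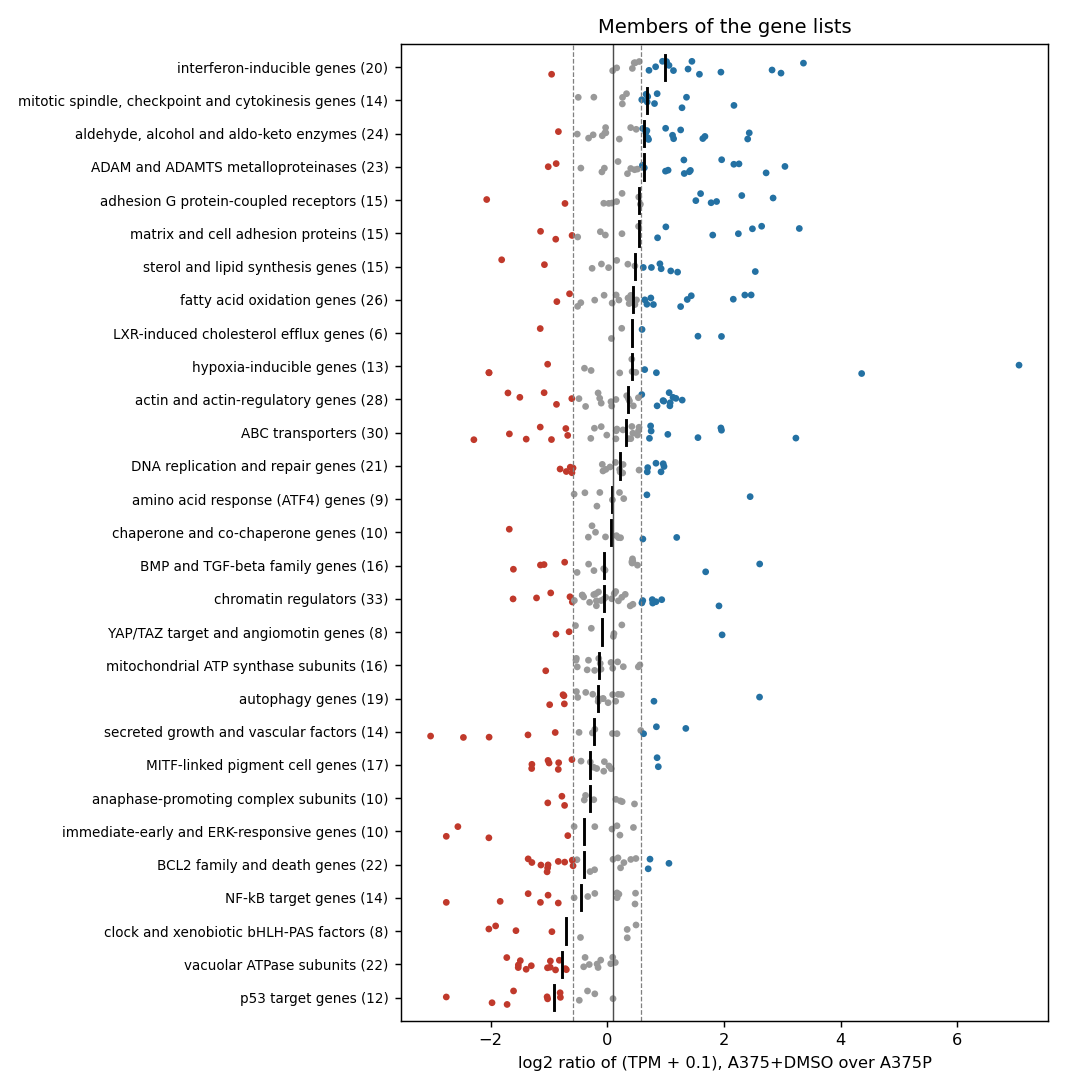
Log2 ratio of (TPM + 0.1), A375+DMSO over A375P (x axis), of each member of 29 gene lists (rows, number of genes compared in parentheses), with past 1.5-fold higher in blue, lower in red and the rest in gray, the median of each list as a black bar, the median of all genes as a solid line and 1.5-fold as dashed lines. The lists run from interferon-inducible genes at a median of 0.98 to p53 target genes at -0.91.

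Of 13 hypoxia-inducible genes, 4 (30.8%) were higher and 3 (23.1%) lower, near the shares of all genes, with a median of 0.42. Of the 12 at a TPM of 1 in both libraries 3 were higher and 3 lower, and the member left out was CA9, which passed through A375+DMSO only. CA9, a carbonic anhydrase of the cell surface, had 1 read in A375P, 289 in A375+DMSO, 0 in A375R and 95 in A375+VEM. Its TPM was 0.0750 in A375P, 23.2 in A375+DMSO, 0 in A375R and 7.69 in A375+VEM, a ratio of 309.7 with an interval from 55.2 to 12275 that rests on the single read in A375P. ALDOC, an aldolase of glycolysis, had a TPM of 5.80 in A375P, 121 in A375+DMSO, 37.9 in A375R and 110.1 in A375+VEM. It was 20.9-fold higher (95% interval 16.7 to 26.4) in A375+DMSO, where it stood at the level of A375+VEM. The mitophagy receptor BNIP3L and the lipase inhibitor ANGPTL4 were the other higher genes, at 0.64 and 0.84. ADM, BHLHE40 and ANKRD37 were lower, at -2.02, -2.03 and -1.02. The widely used hypoxia genes ALDOA, AK4 and BNIP3 were at 0.42, 0.43 and 0.49, and ADORA2B at -0.28, all within the threshold. CA12, a further carbonic anhydrase of the surface, was under a TPM of 1 in both libraries.

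The promoters of CA9 and ALDOC, the 2 most different members, are shown with the core of the hypoxia response element, ACGTG, in capitals, where CACGT is the same motif on the other strand.
CA9, chr9:35673808-35673927, plus strand: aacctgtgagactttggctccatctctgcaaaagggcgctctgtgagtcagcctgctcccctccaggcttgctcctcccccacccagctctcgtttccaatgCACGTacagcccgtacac
ALDOC, chr17:28576896-28577015, minus strand: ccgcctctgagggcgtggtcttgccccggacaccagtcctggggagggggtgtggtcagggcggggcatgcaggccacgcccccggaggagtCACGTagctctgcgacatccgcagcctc
The motif starts 18 bases before the start of CA9 and 28 bases before that of ALDOC. RefSeq promoters were matched for 11 of the 13 hypoxia-inducible genes and 9 of these hold ACGTG at 1 or more listed starts, against 24.9% of the 27305 genes of the table. CACGTG contains ACGTG, so each E-box also counts here. The list was chosen as hypoxia-inducible genes, so this share says nothing of the 2 cultures. The lower genes of the list are part of that number, and the motif is a description of letters only.

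Of 26 fatty acid oxidation genes 10 (38.5%) were higher in A375+DMSO and 2 (7.69%) lower, with a median of 0.44. At their median level, a mean TPM of 24.1, 18.6% of all genes were higher. ACADVL, which opens the mitochondrial oxidation of very long chains, had a TPM of 163 in A375P, 443 in A375+DMSO, 410.0 in A375R and 747 in A375+VEM. ACADS, its short-chain relative, had 4.31 in A375P, 19.6 in A375+DMSO, 11.0 in A375R and 39.9 in A375+VEM. The acyl-CoA synthetase ACSF2 had 3.995 in A375P, 22.5 in A375+DMSO, 15.8 in A375R and 42.1 in A375+VEM. For all 3 A375P was the lowest library and A375+VEM the highest. AMACR, a racemase of branched fatty acids, had 9.22 in A375P, 47.7 in A375+DMSO, 75.3 in A375R and 10.9 in A375+VEM, and it shares 21130 bases on the same strand with the readthrough lncRNA C1QTNF3-AMACR. ACAD9 and the peroxisomal oxidase ACOX3 were at 1.37 and 1.26, and the thiolases ACAA1 and ACAA2 at 0.79 and 0.75. The medium-chain dehydrogenase ACADM, at -0.21, was not past the threshold, and the lower genes were the thioesterases ACOT9 and ACOT1, at -0.86 and -0.65. On 36 reads in A375P and 21 in A375+DMSO, the interval of ACOT1, 0.347 to 1.10, includes equal levels. Summed over the list the TPM was 789 in A375P, 1267 in A375+DMSO, 1301 in A375R and 1628 in A375+VEM.

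Of 15 sterol and lipid synthesis genes 7 (46.7%) were higher and 2 (13.3%) lower, with a median of 0.47, in a quintile where 18.6% of all genes were higher. Higher were ACACB, the mitochondrial acetyl-CoA carboxylase, at a TPM of 1.01 in A375P, 6.34 in A375+DMSO, 5.85 in A375R and 10.5 in A375+VEM. ACLY, which makes acetyl-CoA from citrate, had 129.6 in A375P, 219 in A375+DMSO, 226 in A375R and 206 in A375+VEM. ACSS2, which makes it from acetate, was at 1.09. ACACB, ACLY and ACSS2 were all lowest in A375P, with the 3 other libraries close together for ACLY. The lower genes were AGPAT5 and ACSL1, at -1.81 and -1.08. Of 6 LXR-induced cholesterol efflux genes 3 (50%) were higher and 1 (16.7%) lower, with a median of 0.42, and of the 5 at a TPM of 1 in both libraries 2 were higher. Within that list the exporters ABCG1 and ABCA1 lay on opposite sides, at 1.96 and -1.15. In amino acid metabolism, ASS1, which makes argininosuccinate, was at 2.45 and the asparagine synthetase ASNS at 0.68. The other 7 amino acid response genes, ATF4 itself at -0.38 among them, were within the threshold.

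Of 24 aldehyde, alcohol and aldo-keto enzymes 13 (54.2%) were higher and 1 lower, with a median of 0.64. At their median level, a mean TPM of 18.05, 25.9% of all genes were higher. ALDH7A1, which clears an aldehyde of lysine breakdown, had a TPM of 15.5 in A375P, 49.7 in A375+DMSO, 34.3 in A375R and 60.6 in A375+VEM. ALDH3B1, which acts on lipid aldehydes, had 13.6 in A375P, 42.4 in A375+DMSO, 23.7 in A375R and 68.0 in A375+VEM. AKR1C3, a steroid reductase, had 1.41 in A375P, 8.08 in A375+DMSO, 10.2 in A375R and 25.4 in A375+VEM. These enzymes were lowest in A375P and highest in A375+VEM. AKR1C2 and AKR1C1 were at 2.41 and 1.12, and the near-identical AKR1C copies could share reads. ALDH1A3, the most abundant member, had 815 in A375P and 689 in A375+DMSO, at -0.24. The whole interval was past 1.5-fold for 7 of the 13. Of the 21 members at a TPM of 1 in both libraries 12 were higher and 0 lower.

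Of 23 ADAM and ADAMTS metalloproteinases 13 (56.5%) were higher in A375+DMSO and 2 lower, with a median of 0.64. The median member had a mean TPM of 3.80, in a quintile of levels where 32.6% of all genes were higher. Of the 13, however, 5 reached a TPM of 1 in A375+DMSO only, so the filter by itself set their direction. These were ADAM12, ADAMTS4, ADAMTS10, ADAMTS15 and ADAMTS20. Of the 18 members at a TPM of 1 in both libraries 8 (44.4%) were higher and 2 (11.1%) lower, with a median of 0.49. Among these ADAM19, a membrane sheddase, had a TPM of 3.82 in A375P, 25.8 in A375+DMSO, 140.1 in A375R and 14.2 in A375+VEM. ADAM23, which lacks protease activity, had 3.09 in A375P, 12.3 in A375+DMSO, 5.75 in A375R and 29.8 in A375+VEM. Both were lowest in A375P, and ADAM19 was highest in A375R and ADAM23 in A375+VEM. ADAM11 and ADAMTS1 were at 1.31 and 1.32. ADAMTS4, an aggrecanase that entered through A375+DMSO, had a TPM of 0.939 in A375P, 8.48 in A375+DMSO, 25.5 in A375R and 5.59 in A375+VEM. ADAMTS15, which entered in the same way, had 0.391 in A375P, 2.25 in A375+DMSO, 2.37 in A375R and 67.5 in A375+VEM. The major sheddases ADAM10, ADAM17 and ADAM9 were within the threshold, at 0.52, 0.35 and 0.19. ADAMTS17 and ADAM8 were lower, at -1.01 and -0.88.

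Of 15 matrix and cell adhesion proteins 7 (46.7%) were higher and 3 (20%) lower. Of these 7, ACAN, BOC and ADAMTSL3 reached a TPM of 1 in A375+DMSO only, and of the 12 members that reached it in both libraries 4 (33.3%) were higher and 3 (25.0%) lower, with a median of 0.11. ACAN, the proteoglycan aggrecan that ADAMTS4 cleaves, had a TPM of 0.356 in A375P, 4.37 in A375+DMSO, 2.89 in A375R and 12.7 in A375+VEM. BGN, the small proteoglycan biglycan, had 21.1 in A375P, 74.3 in A375+DMSO, 39.7 in A375R and 45.1 in A375+VEM. BCAM, a laminin receptor, had 11.5 in A375P, 55.0 in A375+DMSO, 33.96 in A375R and 67.6 in A375+VEM. A375P was the lowest library for these. The brain proteoglycan BCAN went the other way, at -1.14. Of 15 adhesion G protein-coupled receptors 6 (40.0%) were higher and 2 (13.3%) lower, but 3 of the 6 entered through A375+DMSO only, and of the 12 in both libraries 3 (25.0%) were higher and 2 lower, near the 22.8% and 18.0% of all such genes. Among them were ADGRB2 at 2.31, ADGRA2 at 1.87 and, lower, the endothelial receptor ADGRL4 at -2.07. Of 16 BMP and TGF-beta family genes 4 (25.0%) were lower and 2 (12.5%) higher, and of the 14 in both libraries 3 and 1. The ligand BMP2 was lower at -1.15 and the pseudoreceptor BAMBI higher at 1.69.

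Of 28 actin and actin-regulatory genes 10 (35.7%) were higher and 5 (17.9%) lower, with a median of 0.35. At their median level, in the highest quintile, 13.1% of all genes were higher. ACTN4, a crosslinker of actin filaments, had a TPM of 437 in A375P, 923 in A375+DMSO, 988 in A375R and 679 in A375+VEM. The Arp2/3 subunit ARPC1B was at 0.97 and the filament caps ADD2 and ADD3 at 0.96 and 1.18. ACTB, cytoplasmic actin, was at 0.06 with a TPM of 2196 in A375P and 2296 in A375+DMSO. ACTA2, smooth muscle actin, had 92.2 in A375P, 28.3 in A375+DMSO, 35.0 in A375R and 40.1 in A375+VEM, highest in A375P, and shares 4901 bases with ACTA2-AS1 on the other strand, which was at -1.21.

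For other classes the shares lay near those of all genes. Of 30 ABC transporters 8 (26.7%) were higher and 7 (23.3%) lower, with the phospholipid exporter ABCB4 at 3.23 and the lysosomal peptide pump ABCB9 at -1.68. Among the 28 at a TPM of 1 in both libraries 7 (25.0%) were higher and 6 (21.4%) lower. Of 33 chromatin regulators 7 (21.2%) were higher and 5 (15.2%) lower, with ATF7IP at 1.92 and ARID3B at -1.61. Of 10 chaperone and co-chaperone genes 2 (20%) were higher and 1 (10.0%) lower, BAG1 at -1.68.

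By size of ratio, the coding genes with a TPM of at least 10 and at least 20 reads in 1 of the 2 libraries gave a further set. The largest ratio after CA9 was that of AGMO, an ether lipid monooxygenase, with a TPM of 2.36 in A375P, 53.9 in A375+DMSO, 30.3 in A375R and 26.2 in A375+VEM. It was 22.8-fold higher (95% interval 17.2 to 31.0) in A375+DMSO, the highest of the 4 libraries. ART3, of the ADP-ribosyltransferase family, had 0.540 in A375P, 10.6 in A375+DMSO, 2.47 in A375R and 9.84 in A375+VEM. Its reads were 8 in A375P and 147 in A375+DMSO. ASAP3, a GTPase-activating protein of Arf, had 0.703 in A375P, 10.1 in A375+DMSO, 4.60 in A375R and 9.01 in A375+VEM. ART3 and ASAP3 were at a like level in A375+DMSO and A375+VEM, and both passed the filter through A375+DMSO only. After these and BST2 came ASB9, the glycosyltransferases B3GNT7, B4GALNT4 and A4GALT, ABCB4, the complement protease C1R, the calcium channel subunit CACNB3, ADAM19 and ATG16L2, at log2 ratios from 2.61 to 3.34.

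At the other end ALOXE3, a lipoxygenase of the epidermal barrier, had a TPM of 11.8 in A375P, 0.724 in A375+DMSO, 2.28 in A375R and 0.328 in A375+VEM. It was 16.2-fold lower (95% interval 10.4 to 26.9) in A375+DMSO. AOC2, a copper amine oxidase, had 21.2 in A375P, 1.68 in A375+DMSO, 2.89 in A375R and 4.75 in A375+VEM. ABL2, a tyrosine kinase of the cytoskeleton, had 226 in A375P, 46.5 in A375+DMSO, 94.99 in A375R and 31.0 in A375+VEM, on 24484 reads in A375P, 4708 in A375+DMSO, 9302 in A375R and 3118 in A375+VEM. All 3 were highest in A375P, and ALOXE3 and ABL2 were lowest in A375+VEM. AVPI1 had 559 in A375P, 106 in A375+DMSO, 196 in A375R and 66.5 in A375+VEM, with the libraries in the same order as for ABL2. Besides BDNF, BTG2, ARC, BHLHE40, ADM and ADGRL4 from the lists, the set held AJAP1, AHNAK2, AMMECR1, CABLES1 and C11orf94, at log2 ratios from -2.56 to -1.99, of which C11orf94 had 33 reads in A375P and 5 in A375+DMSO.

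**Figure D4:**
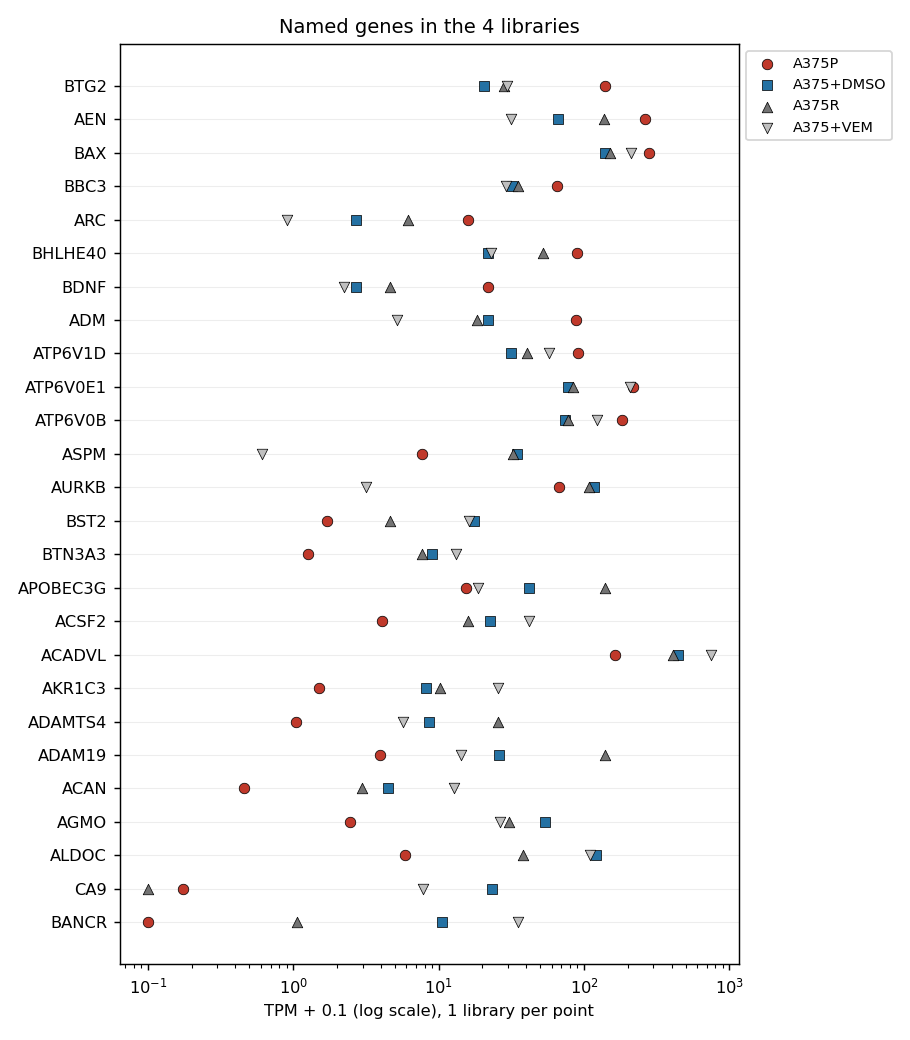
TPM + 0.1 (x axis, log scale) of 26 named genes (rows) in the 4 libraries, 1 point per library with A375P in red, A375+DMSO in blue and the libraries with vemurafenib in gray. The genes shown were picked among those past 1.5-fold, so the A375P and A375+DMSO points lie apart in every row by choice. A375R lies near A375+DMSO in rows such as BAX, ATP6V0B, ASPM and ACADVL, and away from it in others such as CA9, BST2 and APOBEC3G.

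Among the lncRNAs, BANCR was the most different. This melanoma-associated RNA is encoded on the minus strand of chromosome 9, between positions 71911597 and 71921972 of the table, for which the submitters name hg19. It had 0 reads in A375P, 56 in A375+DMSO, 5 in A375R and 187 in A375+VEM. Against the floor of 3 reads in A375P it was at least 20.01-fold higher in A375+DMSO, where the interval of the ratio starts at 15.7, and A375R stood near A375P while A375+VEM stood highest. ANP32A-IT1, which lies within ANP32A on the same strand, had a TPM of 0.960 in A375P, 4.12 in A375+DMSO, 1.93 in A375R and 5.76 in A375+VEM. For it A375P was the lowest library and A375+VEM the highest. Also higher among those reported here were C1orf145, on 4 and 38 reads, and C1QTNF3-AMACR. The lower lncRNAs were ADORA2A-AS1, AATBC, ATP6V1B1-AS1, BSN-AS2 and ACTA2-AS1, between -2.39 and -1.21. ADORA2A-AS1 had 37 reads in A375P, 4 in A375+DMSO, 10 in A375R and 49 in A375+VEM. It shares 13155 bases with the adenosine receptor gene ADORA2A on the other strand, which was at -1.84. ATP6V1B1-AS1 had a TPM of 20.4 in A375P, 6.09 in A375+DMSO, 10.7 in A375R and 8.404 in A375+VEM. It shares 6599 bases with ATP6V1B1 on the other strand, which was at 0.09. Strand was not stated for the counting, so reads of 1 gene of such a pair could be counted for the other.

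Markers of other cells were read in the same libraries. None of 14 blood and immune markers reached a TPM of 1 in either drug-free library, and their summed TPM ran from 1.82 to 8.401 over the 4 libraries, with C1QA and AHSP at 0 reads in A375P and A375+DMSO. Of 16 liver markers 11 were compared and 2 were lower and 0 higher, 1 of the lower ones at a TPM of 1 in A375P only. ALB, the serum albumin, had 1291 reads in A375P, 879 in A375+DMSO, 931 in A375R and 861 in A375+VEM, and the summed TPM of the list was 141 in A375P, 109 in A375+DMSO, 111 in A375R and 105 in A375+VEM. Of 7 nerve markers 2 were compared, APLP1 at 1.83 and BSN at -1.002. Of 7 stromal and smooth muscle markers 4 were compared, with ACTA2 and AOC3 lower at -1.70 and -2.50 and AEBP1 higher at 0.86. BSN and AOC3 reached a TPM of 1 in A375P only, so the filter set their direction. Of the 5 pigment cell markers checked, ABCB5 had at most 6 reads in a library and BIRC7 at most 18, and BEST1, ACP5 and BCL2A1 were detected, at 0.85, 0.88 and -0.84, beside the 7 lower and 2 higher of the 17 MITF-linked genes above. The part of these levels in the differences above was not tested. The genes in the table carried 8.48% to 8.94% of each library's TPM, on 1891215 to 2054277 reads, which are not the depth since the other genes are left out.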

How the data were processed

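RNA of 4 A375 cultures was sequenced, with 1 library per condition, and groups were taken from the labels. The authors deposited whole-number read counts per gene, without normalization, and TPM, which the authors computed as count over gene length scaled to a total per library. The submitters' processing notes name hg19, HISAT2, HISAT, TopHat2 and Bowtie2, with no role or version, and the counting program, annotation and strand setting are not given in the sources used here. The table held an alphabetical part of the genes, up to CAC, with 2864 genes and 1 incomplete row left out.

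For every gene that reached a TPM of 1 in A375P or A375+DMSO, (TPM + 0.1) was divided between the libraries, with 1.5-fold as the threshold and no test. Intervals at 95% came from the reads by the exact Clopper-Pearson method, scaled by the sums behind the TPM. For a gene with 0 reads in 1 library a bound of the fold was taken with a floor of 3 reads, while its ratio and call kept the 0. Interval and bound cover counting error only and compare libraries, not conditions. The 33 gene lists, 4 of them of markers, and the members were chosen with earlier results of these data known. Named genes were the 15 coding genes with the largest ratio in each direction (TPM of at least 10 and 20 reads in 1 library), the 5 lncRNAs in each direction with at least 20 reads, and members of the lists, of which a few are not reported here. Promoters came from RefSeq on GRCh38.p14, matched by gene ID, 250 bases before to 50 after the start. Since the build differs, no position of the table was used with them. Alternatives were pseudocounts of 1 and 0.01, no filter, a TPM of at least 5, median and TMM scaling, 2-fold, and the whole interval past 1.5-fold. A TPM of at least 1 in both libraries was added after seeing the data, since a gene that passes through 1 library is bound to differ. Steps were tested on simulated data. Python 3.11.15, numpy 2.4.6, pandas 2.3.3, scipy 1.17.1, matplotlib 3.10.9, R 4.3.3 and edgeR 4.0.16 (TMM only) were used.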

Additional observations from a re-analysis of the deposited data

How the results depend on the processing

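With 1 library per condition no replicate could be left out, and every ratio compares 2 cultures. No paired analysis was possible because each condition had a single library. None of the alternatives could change the direction of a called value. Filters, thresholds and pseudocounts keep it, and both scaling shifts were far smaller than the threshold. Without the filter on low values 735 of 2864 genes were higher and 531 lower. At 2-fold 286 of 1720 genes (16.6%) were higher and 161 (9.36%) lower. At that threshold 3 of 14 mitotic genes and 6 of 26 fatty acid oxidation genes were higher, little above the share of all genes. Of 24 aldehyde, alcohol and aldo-keto enzymes 8 were higher, and of 22 vacuolar ATPase subunits 7 were lower. At a TPM of at least 5, which 1352 genes reached, 7 ADAM and ADAMTS metalloproteinases were higher. With a TPM of at least 1 asked in both libraries, an alternative chosen after seeing the data, 8 of 18 metalloproteinases were higher. Over all such genes 353 (22.8%) were higher and 279 (18.0%) lower. With the whole interval past 1.5-fold, 309 genes (18.0%) were higher and 214 (12.4%) lower. By that rule 5 of 14 mitotic genes and 7 of 24 aldehyde, alcohol and aldo-keto enzymes were higher. Scaling shifted the log2 ratios by -0.09 (median) or -0.08 (TMM), so the share of calls that were higher went from 58.7% to 51.3% (409 higher, 388 lower) or 52.4% (418 and 379). Of 261 named genes past 1.5-fold, 15 (median), 13 (TMM), 18 (pseudocount of 1) and 0 (pseudocount of 0.01) were no longer past it. Among the genes of large ratio, low reads in 1 library limit genes such as CA9, BANCR, APOBEC3H, C11orf94, ART3, ADORA2A-AS1 and C1orf145. Some calls of small ratio, such as ANGPTL8 and ACOT1, have intervals that include equal levels.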
